A study of Mus musculus with 5 samples.

Results

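The 10 genes described here are marker genes of the mesoderm and of the neural lineage: T, Mixl1, Gsc, Mesp1 and Kdr for the primitive streak and mesoderm, and Pax6, Sox1, Sox11, Nes and Tubb3 for neural cells. They form a list given by gene name, with no threshold on any value, though it was drawn up with earlier results of these data known. They come from a table of 21930 genes that carry a symbol and a value in every library, and all 10 had values there. The deposited table holds FPKM values, fragments scaled to transcript length and to library size, and the FPKM of the RefSeq transcripts of each gene were summed. The samples are 5 RNA-seq libraries of mouse E14 embryonic stem cells, given as strain C57BL/6, with 1 library per group and no replicate.

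The 5 groups were as follows. Normal E14 cells kept with LIF (leukaemia inhibitory factor, a cytokine that supports self-renewal of such cells) gave the first library, and cells labelled as overexpressing the glycolytic enzymes Hk2 and Pkm2 and kept with LIF gave the second. The third and the fourth library are normal and Hk2/Pkm2-labelled cells for which the labels state 24 hours without LIF followed by its return. The fifth is the Hk2/Pkm2-labelled line after 40 days without LIF, and no normal cells at 40 days were analysed here. The labels do not say how Hk2 and Pkm2 were overexpressed or whether the line is 1 clone. Because the 24-hour libraries had LIF returned and the 40-day library did not, time without LIF and the return of LIF cannot be told apart in any comparison of the 40-day library with them.

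In the mouse embryo, the primitive streak forms mesoderm and endoderm under Wnt and Nodal signalling, and T, Mixl1 and Gsc are transcription factors of its cells. Mesp1 marks the earliest cardiovascular mesoderm, and Kdr, the receptor for vascular endothelial growth factor, marks mesoderm that gives blood and vessels. Neural fate arises from epiblast cells shielded from those signals, with Sox1 among the earliest neural plate factors, Pax6 in neural progenitors, Sox11 in progenitors and young neurons, the intermediate filament nestin (Nes) in progenitors and class III beta-tubulin (Tubb3) in neurons.

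The promoters of 4 markers are shown because the results turn on these genes: T and Mesp1 were near the detection limit throughout, and Nes and Tubb3 were the markers past 2-fold between 24 hours and 40 days. The sequences are the 250 bases before the start of each gene, from RefSeq on GRCm38.p6, read 5′ to 3′ on the strand of the gene. In T and Mesp1 the capitals mark matches, on either strand, to the core letters CTTTGA or CTTTGT bound by TCF/LEF factors, the nuclear effectors of Wnt signalling. In Nes and Tubb3 the capitals mark matches, on either strand, to the GC box letters CCGCCC bound by Sp factors.
T promoter, chr17:8434173-8434422, plus strand: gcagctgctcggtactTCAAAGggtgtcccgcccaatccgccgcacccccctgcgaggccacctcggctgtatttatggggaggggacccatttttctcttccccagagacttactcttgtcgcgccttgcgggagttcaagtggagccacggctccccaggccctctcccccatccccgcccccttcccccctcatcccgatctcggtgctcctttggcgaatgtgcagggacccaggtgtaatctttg
Mesp1 promoter, chr7:79793591-79793840, minus strand: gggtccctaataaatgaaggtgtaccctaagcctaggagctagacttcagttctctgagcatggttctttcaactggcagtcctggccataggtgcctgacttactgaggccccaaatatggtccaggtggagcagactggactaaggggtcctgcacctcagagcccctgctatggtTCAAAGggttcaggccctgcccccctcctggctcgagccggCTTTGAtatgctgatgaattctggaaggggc
Nes promoter, chr3:87970843-87971092, plus strand: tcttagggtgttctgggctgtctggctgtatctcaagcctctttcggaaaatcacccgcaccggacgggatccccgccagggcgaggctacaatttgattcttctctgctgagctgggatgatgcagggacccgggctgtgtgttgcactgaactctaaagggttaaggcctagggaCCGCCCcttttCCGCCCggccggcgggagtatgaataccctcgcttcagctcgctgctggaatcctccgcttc
Tubb3 promoter, chr8:123411303-123411552, plus strand: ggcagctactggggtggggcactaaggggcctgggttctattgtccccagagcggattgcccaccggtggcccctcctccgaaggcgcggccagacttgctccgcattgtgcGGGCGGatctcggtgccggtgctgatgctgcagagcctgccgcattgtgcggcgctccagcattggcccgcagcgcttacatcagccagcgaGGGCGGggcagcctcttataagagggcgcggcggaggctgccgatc

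A window was found for 9 of the 10 markers, all but Mixl1, and Pax6 had 2, which makes 10 windows. The TCF/LEF core was in 3 of the 10, in T, Mesp1 and Pax6, against 27.6% of all 32851 promoter windows of the same length. The GC box was in 7 of the 10, in T, Gsc, Kdr, Sox1, Sox11, Nes and Tubb3, against 32.7% of all windows. The letters CCAAT were in 5 of the 10 windows, against 33.8% of all, and TATAAA was in that of Gsc alone, against 12.4% of all. The T-box core TCACACC, present in 3.33% of all windows, and the octamer ATGCAAAT, present in 1.6%, matched none of the 10. Each motif was searched on both strands, and matches of different motifs were allowed to overlap. These matches describe letters in a window and not binding.

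From the steps between low FPKM values the depth of the libraries was estimated at 37250000 to 43000000 fragments, an estimate that moved between 35750000 and 43500000 with the length allowance used. Of the genes in the table, 9590 had a mean of at least 1 FPKM over the 5 libraries and are counted below as past the filter. Among these, 749 are listed at exactly 0 in at least 1 library, including genes that these cells use at high level elsewhere: Tubb4b, a widely expressed beta-tubulin, is listed at 0 in normal cells with LIF and at 150.2 to 457.0 FPKM in the other libraries. A value of 0 is therefore given as listed at 0. Pou5f1, the pluripotency factor Oct4, was at 807 FPKM at 40 days and at 987 to 1092 FPKM in the other 4 libraries. Hk2 was at 76.2 FPKM in normal and 98.6 FPKM in Hk2/Pkm2-labelled cells with LIF, at 49.7 and 59.0 FPKM at 24 hours, and at 29.0 FPKM at 40 days. The 40-day library was thus below every normal library for Hk2, which goes against its label. Pkm, which encodes both pyruvate kinase splice forms, was at 495 to 611 FPKM in the 5 libraries.

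All 5 mesoderm markers stayed below 1 FPKM in each of the 5 libraries, and none passed the filter. Their summed level was 0.780 FPKM in normal and 0.757 FPKM in Hk2/Pkm2-labelled cells with LIF, 0.589 and 0.678 FPKM at 24 hours, and 1.44 FPKM at 40 days. Mixl1 made up the largest part of the sum at 40 days. Of the neural markers, Sox1, Sox11, Nes and Tubb3 passed the filter and Pax6 did not. The summed level of the neural markers was 39.7 and 56.5 FPKM with LIF in normal and Hk2/Pkm2-labelled cells, 12.3 and 18.4 FPKM at 24 hours, and 34.3 FPKM at 40 days. Tubb3 carried most of that sum with LIF, and at 24 hours Sox11 did. With bulk RNA, fewer cells of a type and less RNA per cell cannot be told apart.

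**Figure D1:**
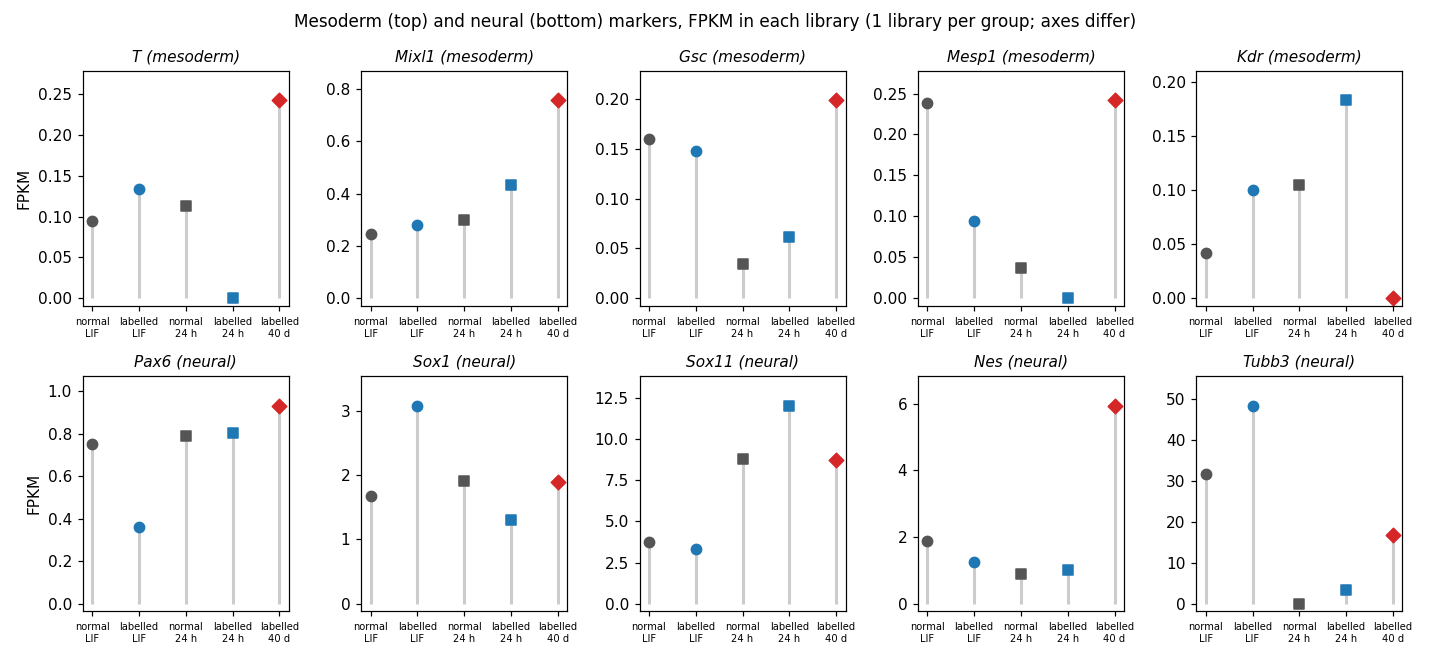
FPKM of each of the 10 markers (vertical axis, linear, a separate scale per gene) in the 5 libraries (horizontal axis), 1 point per library with no error since each group is 1 library; grey is normal, blue Hk2/Pkm2-labelled, red Hk2/Pkm2-labelled at 40 days, circles are LIF and squares 24 hours. The top row, mesoderm, stays below 1 FPKM throughout; in the bottom row Nes is highest at 40 days (5.94 FPKM) and Tubb3 highest with LIF (48.4 FPKM).

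T, the T-box factor Brachyury that is needed for posterior mesoderm, maps to chr17:8627288-8635361, plus strand, on NCBIM37, the assembly also called mm9 and used for all positions of genes below. It was at 0.0942 FPKM in normal and 0.133 FPKM in Hk2/Pkm2-labelled cells with LIF, at 0.113 FPKM in normal cells at 24 hours, listed at 0 in Hk2/Pkm2-labelled cells at 24 hours, and at 0.242 FPKM at 40 days. The 40-day library was the highest. In estimated fragments these values were 7, 11, 8, 0 and 20. The 95% Poisson intervals of the last 2, up to 3.69 against 12.2 to 30.9, did not overlap. The share of all genes whose intervals do not overlap between these libraries was not counted, so T is not shown to stand out. The 40-day interval did overlap those of the libraries with LIF, 2.81 to 14.4 in normal and 5.49 to 19.7 in Hk2/Pkm2-labelled cells. The bound of 3.69 holds only if the listed 0 is a true count of 0. Such intervals cover counting error and not the spread between cultures, which 1 library per group cannot give.

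Mixl1, a homeobox factor of the streak, maps to chr1:182623174-182627165, minus strand. It was at 0.246 and 0.282 FPKM with LIF in normal and Hk2/Pkm2-labelled cells, at 0.301 and 0.434 FPKM at 24 hours, and at 0.757 FPKM at 40 days. It was the highest of the mesoderm markers in every library, and its 40-day value was 1.74 times the Hk2/Pkm2-labelled 24-hour value. The estimated fragments were 22, 26, 24, 35 and 70, and the interval at 40 days, 54.6 to 88.4, lay above those of the other 4 libraries, of which the highest upper bound was 48.7. On the log2(FPKM + 1) scale the difference from 24 hours was 0.29, and it turned to -0.08 with quantile normalization.

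Gsc, the homeobox factor Goosecoid of the anterior streak, maps to chr12:105709419-105711537, minus strand. It was at 0.159 and 0.147 FPKM with LIF in normal and Hk2/Pkm2-labelled cells, 0.0342 and 0.0619 FPKM at 24 hours, and 0.199 FPKM at 40 days. Both 24-hour libraries were the lowest, but at 1 and 3 estimated fragments (1.42 and 2.59 before rounding). The interval of the 40-day estimate of 10 fragments, 4.80 to 18.4, overlapped that of the Hk2/Pkm2-labelled 24-hour library, 0.62 to 8.77.

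Mesp1, a basic helix-loop-helix factor, maps to chr7:86937127-86938674, minus strand. It was at 0.239 FPKM in normal and 0.0945 FPKM in Hk2/Pkm2-labelled cells with LIF, at 0.0369 FPKM in normal cells at 24 hours, listed at 0 in Hk2/Pkm2-labelled cells at 24 hours, and at 0.242 FPKM at 40 days. The 40-day value and that of normal cells with LIF were nearly equal, at 12 and 11 estimated fragments.

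Kdr, a receptor tyrosine kinase, maps to chr5:76328852-76374483, minus strand. Its order differed from that of the other mesoderm markers: it was at 0.0414 and 0.0998 FPKM with LIF in normal and Hk2/Pkm2-labelled cells, at 0.105 and 0.183 FPKM at 24 hours, and listed at 0 at 40 days. The estimated fragments were 10, 25, 23, 40 and 0. In FPKM, Kdr was the lowest at 40 days while T, Mixl1, Gsc and Mesp1 were each highest there. By the share of genes lower in the same library, none of these markers was highest at 40 days. T was at 46.6% there, against 48.8% in Hk2/Pkm2-labelled cells with LIF. Mixl1 was at 53.3%, against 54.2% in Hk2/Pkm2-labelled cells at 24 hours. Gsc and Mesp1 were at 45.5% and 46.6%, against 49.6% and 51.5% in normal cells with LIF. Only Mixl1 and Kdr ranked below the Hk2/Pkm2-labelled 24-hour library. All these levels were below 1 FPKM. At such levels the size of a log2 difference follows the pseudocount: between 24 hours and 40 days, T was at 0.31, Mesp1 at 0.31, Gsc at 0.17 and Kdr at -0.24 with a pseudocount of 1, and at 1.77, 1.77, 0.88 and -1.50 with 0.1. With 0.1, T and Mesp1 would thus pass 2-fold higher and Kdr 2-fold lower, each against a library listed at 0.

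**Figure D2:**
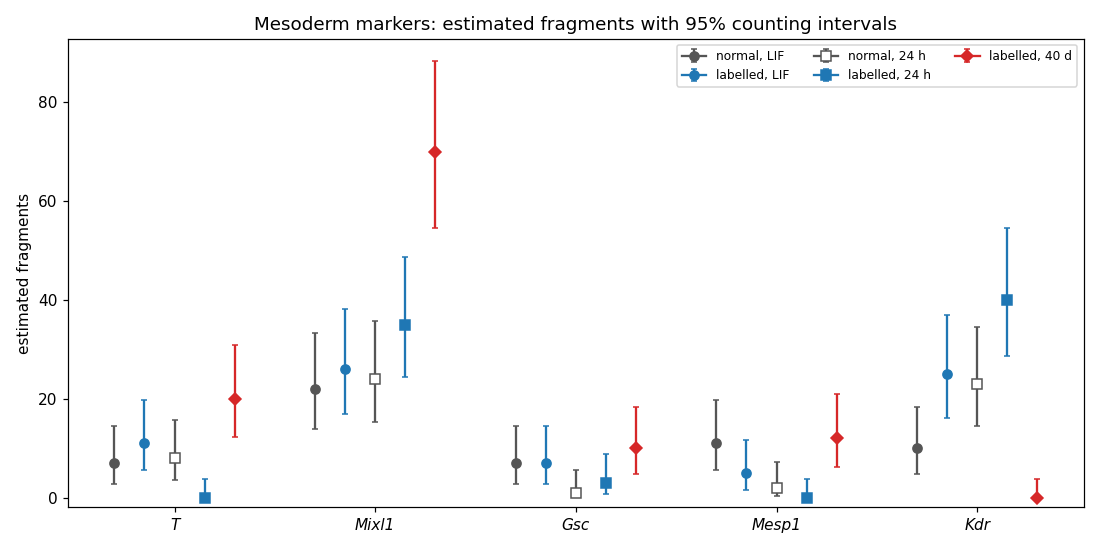
Estimated fragments (vertical axis, linear) of the 5 mesoderm markers in the 5 libraries, with 95% Poisson intervals as bars that cover counting error only. Mixl1 at 40 days reaches 70 fragments and is the highest value, and T and Mesp1 in the Hk2/Pkm2-labelled 24-hour library and Kdr at 40 days sit at 0.

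Pax6, a paired-box factor, maps to chr2:105509053-105543317, plus strand, where its exons overlap those of Elp4 on the opposite strand. The kit named in the labels does not mark strand, so reads of the overlap cannot be assigned between Pax6 and Elp4. Pax6 was at 0.753 and 0.361 FPKM with LIF in normal and Hk2/Pkm2-labelled cells, at 0.788 and 0.803 FPKM at 24 hours, and at 0.933 FPKM at 40 days. The lowest library was the Hk2/Pkm2-labelled one with LIF, and the others lay close together. The difference between 40 days and 24 hours was 0.10 on the log2(FPKM + 1) scale and turned to -0.30 with quantile normalization.

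Sox1, an SRY-box factor of the neural plate, is given here without a position. It was at 1.68 and 3.08 FPKM with LIF in normal and Hk2/Pkm2-labelled cells, at 1.90 and 1.29 FPKM at 24 hours, and at 1.90 FPKM at 40 days. The Hk2/Pkm2-labelled library with LIF was the highest, and the 40-day library equalled normal cells at 24 hours to 3 digits. The 40-day value stood 0.34 above the Hk2/Pkm2-labelled 24-hour value on the log2(FPKM + 1) scale and 0.06 below it (-0.063) with quantile normalization. From LIF to 24 hours the difference was 0.12 in normal and -0.83 in Hk2/Pkm2-labelled cells.

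Sox11, an SRY-box factor, maps to chr12:28025562-28027574, minus strand. It was at 3.73 and 3.34 FPKM with LIF in normal and Hk2/Pkm2-labelled cells, at 8.78 and 12.1 FPKM at 24 hours, and at 8.72 FPKM at 40 days. The 2 libraries with LIF were the lowest, and the 3 others did not overlap with them. The ratio of 24 hours to LIF was 2.35 in normal and 3.61 in Hk2/Pkm2-labelled cells, and that of 40 days to LIF was 2.61. From 24 hours to 40 days the difference was -0.42 on the log2(FPKM + 1) scale.

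Nes maps to chr3:87775000-87784373, plus strand. It was at 1.87 and 1.25 FPKM with LIF in normal and Hk2/Pkm2-labelled cells, at 0.880 and 1.02 FPKM at 24 hours, and at 5.94 FPKM at 40 days. The 40-day library was the highest and the 24-hour libraries the lowest. The 40-day value was 5.82 times the Hk2/Pkm2-labelled 24-hour value, a difference of 1.78 on the log2(FPKM + 1) scale, and 4.74 times the value with LIF. In estimated fragments this was 1526 at 40 days, with an interval of 1450 to 1605, against 229, with an interval of 200.3 to 261.

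Tubb3 maps to chr8:125935324-125945915, plus strand. It was at 31.7 and 48.4 FPKM with LIF in normal and Hk2/Pkm2-labelled cells, listed at 0 in normal cells at 24 hours, at 3.27 FPKM in Hk2/Pkm2-labelled cells at 24 hours, and at 16.8 FPKM at 40 days. Its order was thus unlike that of Nes: the libraries with LIF were the highest, the 24-hour libraries the lowest and the 40-day library lay between them. The 40-day value was 5.12 times the Hk2/Pkm2-labelled 24-hour value and 0.346 times the value with LIF. No 50-base word of the Tubb3 transcript occurs in a transcript of another protein-coding gene. Only exact matches to protein-coding transcripts were searched, so pseudogenes and reads aligned with mismatches were not covered. Tubb5, the most abundant of 8 beta-tubulin genes in every library, was at 524 to 872 FPKM.

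Between 24 hours and 40 days without LIF in Hk2/Pkm2-labelled cells, 2 of the 4 markers past the filter, Nes and Tubb3, stood at least 2-fold higher on the log2(FPKM + 1) scale and none stood 2-fold lower. Over all 9590 genes past the filter 12.1% were 2-fold higher and 5.78% 2-fold lower. The median difference of these genes was 0.07, against 1.06 over the 4 markers, a value that falls between Sox1 at 0.34 and Nes at 1.78. With no filter the median was 0.30 over all 10 markers and 0.0 over all 21930 genes. Among the 4, each had a mean of at least 1 FPKM also without the 40-day library. With median-ratio scaling the median of all genes moved by -0.15 and with quantile normalization by -0.13, and Nes and Tubb3 stayed 2-fold higher under both. With 1 library per group this comparison has no replicate check and no test. Against Hk2/Pkm2-labelled cells with LIF, the 40-day library had Sox11 and Nes higher and Tubb3 lower, where 14.0% of all genes were higher and 8.31% lower. Sox11 was just past 2-fold there, at a difference of 1.16, and fell short of it with median-ratio scaling (0.993) and with quantile normalization (0.995). Both comparisons share the 40-day library.

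From LIF to 24 hours, Sox11 stood higher and Tubb3 lower in both cell types. In Hk2/Pkm2-labelled cells 5.79% of genes past the filter were 2-fold higher and 6.07% lower, and in normal cells 4.62% were higher and 5.51% lower. The 4 libraries with LIF or at 24 hours allow 1 fit with culture and cell type as terms, with limma, which leaves 1 residual degree of freedom. In it the culture term was 1.32 ± 0.22 (SE) for Sox11, with an adjusted p of 0.345 by limma. For Tubb3 it was -4.28 ± 0.49 (SE), with an adjusted p of 0.329 by limma, on a value that includes the library listed at 0. For Nes it was -0.38 ± 0.21 (SE) and for Sox1 -0.36 ± 0.34 (SE), with adjusted p-values of 0.551 and 0.664 by limma. No marker passed the threshold of 0.05 for this term, and neither did any other gene (0.0% of 9590 called), with 1154 genes at an unadjusted p under 0.05.

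Between Hk2/Pkm2-labelled and normal cells with LIF no marker past the filter differed by 2-fold, where 4.11% of genes were higher and 5.32% lower. At 24 hours only Tubb3 was counted as higher, because it is listed at 0 in normal cells. In that comparison 4.19% of genes were higher and 5.18% lower. In the limma fit the cell type term of Tubb3 was 1.35 ± 0.49 (SE), with an adjusted p of 0.533, and those of Sox1, Sox11 and Nes lay between -0.12 and 0.15, with adjusted p-values by limma of 0.787 to 0.879. No gene of the 9590 passed the threshold for cell type (0.0% called), with 918 at an unadjusted p under 0.05.

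The markers can be set beside other genes of the same lineages. Of 35 other streak and mesoderm genes, 33 had a value in every library and 8 passed the filter. Over all genes past the filter 12.1% were 2-fold higher and 5.78% lower between 24 hours and 40 days. Of the 8, 2 were 2-fold higher and 1 was 2-fold lower, with a median difference of 0.34. That median was 0.045 with quantile normalization, and with a mean of at least 5 FPKM it turned to -0.63, with no gene 2-fold higher. Over the 33 genes with no filter 4 were 2-fold higher and 1 lower, with a median of 0.20, where 6.65% of all 21930 genes were higher and 2.76% lower. Pecam1, an adhesion molecule of endothelium that embryonic stem cells also carry, is listed at 0 in both 24-hour libraries and in normal cells with LIF. It was at 6.53 FPKM at 40 days and at 4.25 FPKM in Hk2/Pkm2-labelled cells with LIF, so its count as 2-fold higher rests on a listed 0. Snai1, a repressor of E-cadherin used in the streak, was at 0.686 FPKM at 24 hours and 3.94 FPKM at 40 days. The other genes 2-fold higher with no filter were Pdgfra and Etv2, which did not pass the filter. Pdgfra went from 0.0914 to 4.20 FPKM and was at 0.110 FPKM or less in the other 3 libraries. Etv2 went from a listed 0 to 1.16 FPKM and was at 1.10 to 1.24 FPKM in the other 3 libraries. Tcf15, a helix-loop-helix factor of paraxial mesoderm also present in stem cells, was at 79.0 FPKM at 24 hours and 22.7 FPKM at 40 days, and at 70.4 to 116 FPKM in the other 3 libraries. Eomes, a T-box factor of the streak, was at 3.58 FPKM at 24 hours and 1.50 FPKM at 40 days, and at 0.423 to 1.21 FPKM in the other 24-hour library and with LIF. Of the 33, 5 were at 1 FPKM or more in the Hk2/Pkm2-labelled 24-hour library and 12 in the 40-day library, beside 11 in normal cells with LIF. Over all genes, 58.7% lay below 1.02 FPKM in the Hk2/Pkm2-labelled 24-hour library and 54.6% below 0.933 FPKM at 40 days. The exact share of all genes at 1 FPKM or more was not counted.

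Of 42 other neural genes, 41 had a value in every library and 18 passed the filter. Over the 41 with no filter 3 were 2-fold higher and 3 lower between 24 hours and 40 days, with a median difference of 0.0073. Over all 21930 genes with no filter 6.65% were higher and 2.76% lower, shares near those of the 41. Those of the 41 that did not pass the filter were Irx3, from 0.737 to 3.61 FPKM, Nefm, from 0.00622 to 1.05 FPKM, and Sox4, from 4.03 FPKM to a listed 0. Among the 18, 1 was 2-fold higher and 2 were lower, with a median of -0.25. Over all genes past the filter 12.1% were higher and 5.78% lower. Msi1, the higher one of the 18, and Dll1 passed the filter only through the 40-day library, and none of the other 16 was 2-fold higher. Msi1, an RNA-binding protein of neural progenitors, is listed at 0 at 24 hours and was at 8.04 FPKM at 40 days, and at 0.423 to 2.49 FPKM in the other 3 libraries. Gbx2, a homeobox factor of the hindbrain boundary that naive stem cells also express, was at 20.7 FPKM at 24 hours and 4.05 FPKM at 40 days. Sox12 was at 17.8 FPKM at 24 hours and 6.89 FPKM at 40 days. Sox2, a factor of stem cells and of neural progenitors, was at 186 FPKM at 24 hours and 93.0 FPKM at 40 days. The neural and mesoderm lists were assembled with earlier results of these data known.

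**Figure D3:**
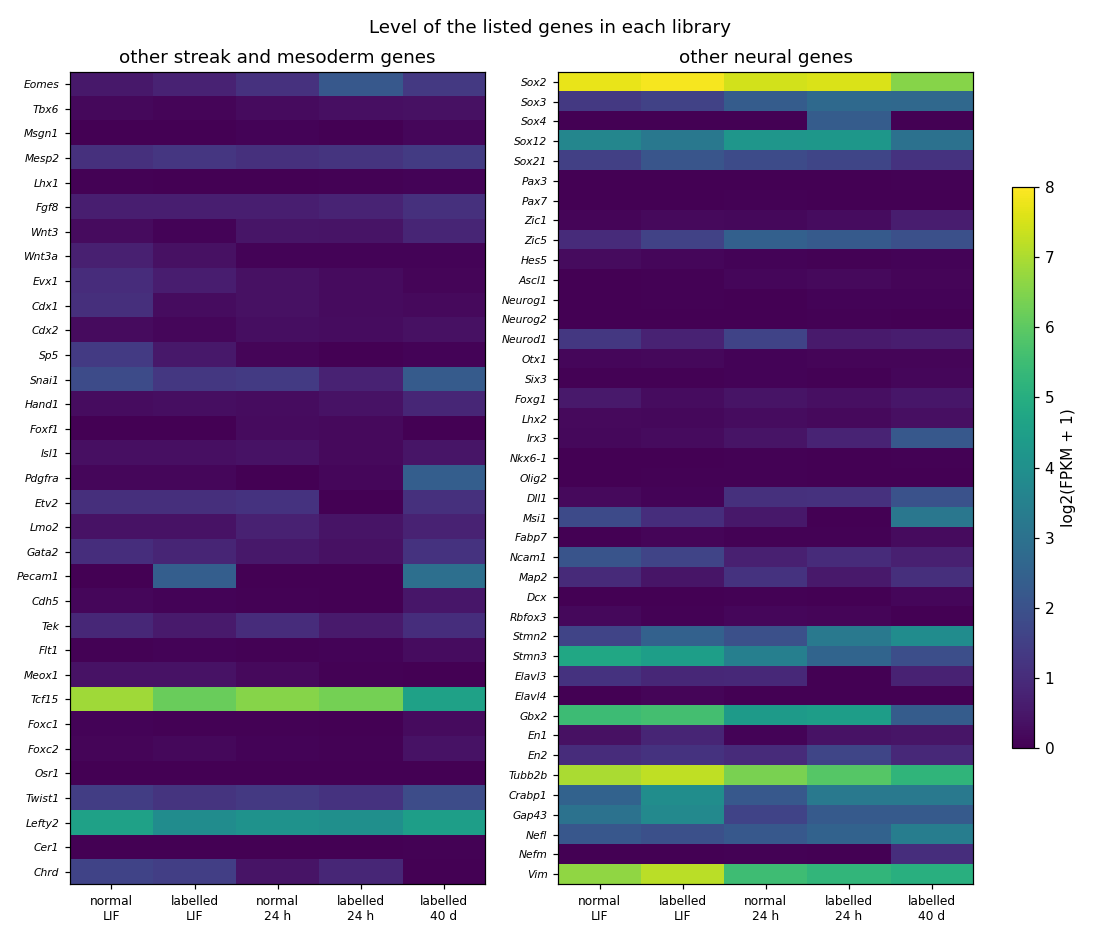
Level on a log2(FPKM + 1) colour scale of the 33 other streak and mesoderm genes (left) and the 41 other neural genes (right) in the 5 libraries. Most rows are near 0 in every library, and Tcf15, Lefty2, Sox2, Gbx2, Tubb2b and Vim stand out as high.

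Some markers of other cell types differed between the same 2 libraries. Over all 21930 genes with no filter 6.65% were 2-fold higher at 40 days and 2.76% lower. Over the 9590 genes past the filter these shares were 12.1% and 5.78%. Of 18 endoderm genes, with no filter, 12 were 2-fold higher at 40 days and 1 was lower, with a median difference of 2.64. Of the 11 past the filter, Gata6, Dab2, Amn and Cubn passed only through the 40-day library, and 6 of the other 7 were 2-fold higher. Gata6, a factor of primitive endoderm, was at 0.177 FPKM at 24 hours and 7.88 FPKM at 40 days, and Gata4 was at 1.99 and 25.6 FPKM. Lama1, a laminin chain of basement membrane, was at 0.436 FPKM at 24 hours and 77.3 FPKM at 40 days, and the collagen IV gene Col4a1 was at 2.86 and 124.8 FPKM. The endocytic genes Dab2 and Cubn were at 0.236 FPKM and listed at 0 at 24 hours, and at 52.0 and 40.1 FPKM at 40 days. Sparc, counted as lower, was at 5.60 FPKM at 24 hours and is listed at 0 at 40 days. The summed endoderm level was 33.7 to 124 FPKM in the other 4 libraries and 534 FPKM at 40 days, while Sox17 was at 0.0672 FPKM or less in every library and listed at 0 at 40 days, and Afp is listed at 0 in all 5. Of 13 fibroblast genes with no filter 2 were 2-fold higher, with a median of 0.09, Tagln from a listed 0 to 25.6 FPKM and Acta2 from 0.0456 to 6.77 FPKM, of which Acta2 passed the filter only through the 40-day library. The summed fibroblast level was 32.3 FPKM at 24 hours and 84.6 FPKM at 40 days, against 79.5 FPKM in normal cells with LIF. Col1a1, Col1a2 and Col3a1 were at 0.195 FPKM or less in every library. Of 12 trophoblast genes with no filter 3 were 2-fold higher, with a median of 0.20, and 2 of these passed the filter, the keratins Krt8, from 2.54 to 21.6 FPKM, and Krt18, from 5.52 to 54.2 FPKM. The summed trophoblast level was 84.3 FPKM at 40 days and 15.9 to 32.1 FPKM in the other 4 libraries. Krt8 and Krt18 made up most of that sum at 40 days. Elf5 is listed at 0 in all but the 40-day library, where it was at only 0.096 FPKM. The part of these cell types in the Nes and Tubb3 differences was not tested.

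Genes of the pluripotent states also differed between 24 hours and 40 days. Of all genes past the filter 12.1% were 2-fold higher at 40 days than at 24 hours and 5.78% lower. None of the 10 pluripotency genes was 2-fold higher, and their median difference was -0.57. The 2 that were 2-fold lower were Zfp42, from 127.6 to 40.9 FPKM, and Nr0b1, from 52.1 to 17.6 FPKM. Nanog, a factor of the naive state, was at 54.5 FPKM at 24 hours and 29.6 FPKM at 40 days, against 183 FPKM in Hk2/Pkm2-labelled cells with LIF. Klf4 and Tbx3 of the same list went the other way, from 6.66 to 12.3 FPKM and from 3.15 to 5.61 FPKM. Of 9 primed epiblast genes past the filter none was 2-fold higher and 2 were lower, Foxd3, from 42.9 to 11.6 FPKM, and Lef1, from 8.16 to 3.26 FPKM. The median difference over the 9 was -0.77, and the largest rise was that of Fgf5, at 0.89. Fgf5, a growth factor of primed epiblast, was at 3.56 FPKM at 24 hours and 7.46 FPKM at 40 days, against 0.0685 FPKM and 0.0329 FPKM with LIF in normal and Hk2/Pkm2-labelled cells.

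**Figure D4:**
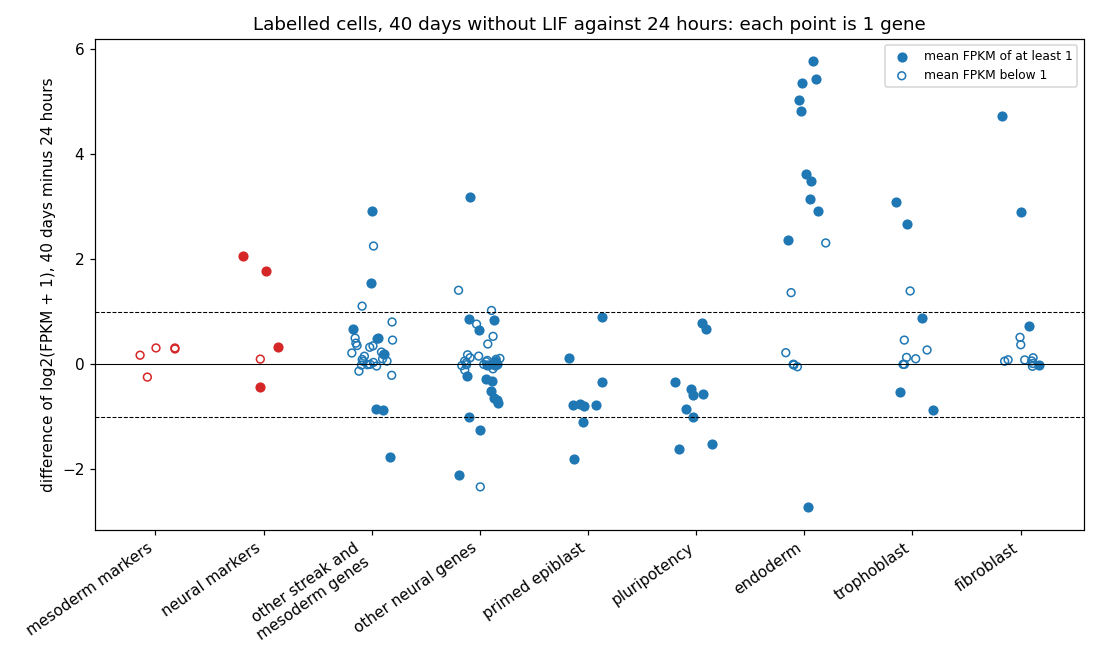
Difference of log2(FPKM + 1) between 40 days without LIF and 24 hours in Hk2/Pkm2-labelled cells (vertical axis), 1 point per gene, grouped by list (horizontal axis), with red for the 10 markers, filled points for a mean of at least 1 FPKM and dashed lines at 2-fold. The red mesoderm markers lie between -0.24 and 0.31 with the pseudocount of 1 used here, and Nes and Tubb3 lie above the upper line at 1.78 and 2.06. Of the 18 endoderm points, filled and open, 12 lie above it.

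The genes whose profile over the 5 libraries was most like that of each marker past the filter were found by the distance between mean-centred log2(FPKM + 1) values among 9589 genes, as a description over 5 libraries. For Sox1 they were Sec16a (distance 0.0866) and E130102H24Rik (0.180). For Sox11 they were G2e3 (0.160) and Ankrd6 (0.208). For Nes they were Dsp, which encodes the desmosomal protein desmoplakin (0.134), and Tpm4, a tropomyosin (0.194). Dsp was at 0.338 FPKM at 24 hours and 3.57 FPKM at 40 days, and at 0.283 to 0.784 FPKM in the other 3 libraries. For Tubb3 the nearest were Zbtb8os (1.77) and Ccdc9 (1.85), each listed at 0 in both 24-hour libraries.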

How the data were processed

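The data are FPKM values of 28698 RefSeq transcripts in 5 libraries of total RNA, deposited by the authors in 1 table. Per the submitters' processing notes the tools were TopHat2 2.0.7 and Cufflinks 2.0.2 with mm9; per the labels' protocols RNA was taken with Qiazol and libraries were made with TruSeq. The files used here hold no read counts, so no count test was run.

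From these, transcripts were named with the RefSeq gene table (28066 matched a symbol, 632 did not), FPKM were summed per gene, and 337 genes with a hyphen in place of a value were left out. Levels were compared as log2(FPKM + 1), and the filter on low values was a mean FPKM, across all 5 libraries, of 1 or more. A fold of 2 on that scale describes single libraries. The only test was limma 3.58.1 (R 4.3.3) on 4 libraries, additive for culture and cell type, with empirical Bayes and a trend. Benjamini-Hochberg adjustment was over all genes past the filter. It was first run on simulated data, with no outcome given here. The fit leaves 1 residual degree of freedom, so a lack of calls does not show a lack of difference. Its p-values rest on the spread between these libraries, which nothing in the labels says are separate cultures. Depth was estimated from the steps of low FPKM values, with an allowance of 150 bases in transcript length. The low values followed the fitted steps only loosely. Fragments were estimated with GENCODE transcript lengths and rounded to whole numbers before the intervals were made. The 95% Poisson intervals cover counting error only, and not the error of these estimates. Fragments and intervals were not scaled to equal depth. Positions come from GENCODE on NCBIM37, and promoters from RefSeq on GRCm38.p6.

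The markers and gene lists were chosen with earlier results of these data known. Genes named are all 10 markers, the 4 largest 2-fold differences in each direction per list between 24 hours and 40 days, the 2 most alike genes per marker past the filter, and Pou5f1, Nanog, Sox2, Zfp42, Gata6, Sox17, Gata4, Hk2 and Pkm. Eomes, Fgf5, Tubb4b, Tubb5, Afp, Elf5 and the collagens were added after their values were seen. So were Pdgfra, Etv2, Irx3, Nefm, Sox4, Klf4 and Tbx3. Alternatives were a pseudocount of 0.1, median-ratio scaling, quantile normalization, no filter, a mean of at least 5 FPKM, the highest transcript per gene, leaving out further copies and, for limma, empirical Bayes without a trend. Counts over the endoderm, trophoblast and fibroblast lists with no filter were added after the data were seen.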

Additional observations from a re-analysis of the deposited data

Results flagged for a closer look

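Between LIF and 24 hours, T differed by 0.02 in normal and by -0.18 in Hk2/Pkm2-labelled cells on the log2(FPKM + 1) scale, opposite directions that lie -0.20 apart, at 11 estimated fragments or fewer in each library. Sox1 differed by 0.12 in normal and by -0.83 in Hk2/Pkm2-labelled cells, opposite directions that lie -0.95 apart. Each group is 1 library, and neither difference was tested.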

How the results depend on the processing

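A count was called moved where it changed by more than 1.5 times or to or from 0. A median or log2 difference moved where it changed by more than 0.25. A limma value moved only where its adjusted p crossed 0.05. No gene passed that in any fit, so no limma value moved. Even so, the Tubb3 culture term went from -4.28 to -6.08 with a pseudocount of 0.1. Filters and leaving out further copies did not change a marker's own log2 difference. Only a 2-fold difference of a single gene, Nes or Tubb3, could be called reversed, and none was. Of 142 values of the summary results under an alternative, 20 moved, as did 10 of 130 single-gene values. Both totals include limma values, and the 130 also include marker differences that filters or further copies leave unchanged. The moved share is therefore no measure of robustness. Of the 10, 7 came with a pseudocount of 0.1 (T 1.77, Mesp1 1.77, Gsc 0.88, Mixl1 0.68, Kdr -1.50, Nes 2.43 and Tubb3 2.32) and 3 with quantile normalization (Mixl1 -0.08, Pax6 -0.30 and Sox1 -0.063), all between 24 hours and 40 days. With a pseudocount of 0.1 the markers lower at 24 hours than with LIF were 2 in Hk2/Pkm2-labelled and 2 in normal cells; between 24 hours and 40 days 3 streak genes were lower, and 2 neural genes were higher and 4 lower. Against LIF, the markers higher at 40 days were 1 with median-ratio scaling and 1 with quantile normalization, Sox11 being the gene lost in both. Within the tolerance, 3 neural genes were lower with median-ratio scaling and 3 with no filter, against 2. Quantile normalization also gave 2 streak genes lower, a streak median of 0.045 and 4 neural genes lower. With no filter 4 streak and 3 neural genes were higher and the neural median was 0.0073. With a mean of at least 5 FPKM, 1 marker was higher at 40 days than at 24 hours and 1 higher than with LIF, 0 streak and 0 neural genes were higher, and the medians were -0.63 for streak and -0.64 for neural genes, over fewer genes. With the highest transcript only, 2 streak genes were lower. Apart from the filters, which change the genes counted, the cause was not tested. No paired analysis was possible because the groups share a single replicate number, so no replicate block could be fitted beyond the cell type term of the limma fit, and no replicate could be left out. The estimated depth limits statements on markers below 1 FPKM to counting error.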
